A study of Homo sapiens with 4 samples.

Results

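The genes described here are a set of transcription regulators of the lung lineage, a pair of surfactant genes that mark differentiated alveolar cells, and LBH, a transcription cofactor first known from limb bud and heart. Of the 8 genes listed (FOXA1, FOXA2, NKX2-1, HOPX, GATA6, LBH, SFTPB and SFTPC), 7 were measured, out of 12483 genes with at least 1 probe that carried exactly 1 gene symbol. The members were read by 8 cDNA probes out of 26629, with 2 clones for FOXA1 and 1 for each of the other genes. No probe was annotated to GATA6, which is not analysed here. The genes were chosen by symbol with results of these data known: LBH, FOXA1 and HOPX were selected on their mean log ratio over the 4 arrays, which had passed a test, and the others for their place in the lung lineage. Their values on that scale are therefore given as a description, with no p-value. Where calls of LBH, FOXA1 and HOPX on that scale are mentioned, the choice had already favoured them.

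RNA came from A549, a human lung adenocarcinoma line widely used as a model of alveolar type II cells. Each of 4 two-colour cDNA arrays held amplified RNA of a culture overexpressing let-7a-3 in one dye and RNA of a parental A549 culture in the other, all grown in the same medium with no further treatment. Arrays 1 and 3 carried one dye orientation and arrays 2 and 4 the other, by the numbered RNA sources of the labels. The parental cells are the control, and no culture with an empty vector is among the groups, so transfection and let-7a-3 cannot be told apart. Neither the promoter driving let-7a-3 nor the number of transfected lines behind its cultures is given in the sources used here. The replicates are 4 arrays whose RNA sources carry different numbers. Nothing in the labels says how far apart those sources were grown, so p-values speak only for these arrays. In the main fit they rest on the spread between arrays of the same orientation, with variance borrowed over all genes. The SD printed with a mean is over all 4 arrays, so it also holds any difference between the orientations.

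The deposited values are log ratios of the 2 channels. The sources used here do not give their base, the channel in the numerator or any turning of the swapped arrays. A positive value therefore means only that the deposited ratio was above 0, and no fold is given. The mean of the 4 arrays is called the shared component. The part of a value that changes sign with the dye orientation is called the alternating component, and is given with the sign of arrays 1 and 3. If the swapped arrays were turned before deposit, the shared component holds the difference between the cultures and the alternating component the effect of the dyes. If they were not turned, the roles are exchanged, and a mean over 4 arrays is a dye effect. The sources used here do not settle which applies, so each value below is that of a component, and neither is called the difference between the cultures. Over the 12483 genes, arrays of 1 orientation correlated at 0.479 (arrays 1 and 3) and 0.585 (arrays 2 and 4, Pearson), while pairs of opposite orientation were at 0.125, 0.118, -0.0646 and -0.0514. These correlations are across genes, which are not independent replicates. Ratios carry no absolute level, and intensities are not analysed here, so the labelled cell type could not be checked against its markers.

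FOXA1 and FOXA2 are forkhead factors that open chromatin in endoderm and act side by side in the lung. NKX2-1 is the homeodomain factor that sets lung identity, and together with the forkhead factors it drives the surfactant genes SFTPB and SFTPC in alveolar type II cells. HOPX is a small homeodomain protein that does not bind DNA itself and marks alveolar type I cells, and GATA6 is a zinc finger factor of lung endoderm. LBH encodes a small nuclear cofactor that is known as a target of Wnt signalling in mammary epithelium.

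The microRNA that separates the cultures is shown first, because its seed is what it pairs with targets by. The hairpin and the mature strands of let-7a-3 are taken from RefSeq on GRCh38.p14, 5′ to 3′, with the seed (bases 2 to 8) in capitals.
let-7a-3 hairpin, chr22:46112749-46112822, plus strand: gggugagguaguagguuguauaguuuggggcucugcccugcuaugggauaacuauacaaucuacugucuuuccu
let-7a-5p, chr22:46112752-46112773, plus strand: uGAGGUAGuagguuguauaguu
let-7a-3p, chr22:46112800-46112820, plus strand: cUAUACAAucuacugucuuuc

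Promoters are shown for the 3 genes whose values lay away from 0 and for SFTPB, a known target of the forkhead factors and NKX2-1. Each is the 250 bases before an annotated start in RefSeq (GRCh38.p14), 5′ to 3′ on the strand of the gene, and both HOPX and SFTPB have 2 starts in the table, of which 1 is printed. Capitals mark matches on either strand to a forkhead motif (TGTTTAC, or the same string ending in AT, GC or GT) or to TCAAG, the core of sites bound by NKX2-1. These strings do not overlap one another, and they were chosen after the sequences had been seen.
LBH, chr2:30231284-30231533, plus strand: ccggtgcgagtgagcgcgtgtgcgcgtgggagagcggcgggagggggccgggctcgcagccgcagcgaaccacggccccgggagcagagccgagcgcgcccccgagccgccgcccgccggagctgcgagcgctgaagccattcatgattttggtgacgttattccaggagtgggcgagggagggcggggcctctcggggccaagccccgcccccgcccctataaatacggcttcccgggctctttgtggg
FOXA1, chr14:37595250-37595499, minus strand: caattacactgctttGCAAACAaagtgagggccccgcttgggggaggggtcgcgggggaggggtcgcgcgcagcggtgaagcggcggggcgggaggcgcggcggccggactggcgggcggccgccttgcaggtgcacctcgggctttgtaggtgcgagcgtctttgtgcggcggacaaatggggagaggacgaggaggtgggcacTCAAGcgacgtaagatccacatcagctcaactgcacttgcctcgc
HOPX, chr4:56681297-56681546, minus strand: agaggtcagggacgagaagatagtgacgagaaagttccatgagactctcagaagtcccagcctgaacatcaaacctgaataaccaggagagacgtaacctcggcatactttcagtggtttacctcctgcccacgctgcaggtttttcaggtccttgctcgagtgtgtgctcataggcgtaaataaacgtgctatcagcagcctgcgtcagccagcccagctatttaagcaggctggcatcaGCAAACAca
SFTPB, chr2:85668200-85668449, minus strand: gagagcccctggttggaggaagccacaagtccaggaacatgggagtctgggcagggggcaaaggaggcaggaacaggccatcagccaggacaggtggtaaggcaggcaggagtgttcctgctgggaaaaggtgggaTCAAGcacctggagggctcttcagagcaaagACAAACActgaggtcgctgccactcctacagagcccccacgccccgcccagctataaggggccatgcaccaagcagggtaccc

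Of all 35116 promoter windows of this length, 13.3% held a forkhead match and 29.2% held TCAAG. The FOXA1 window held 1 of each, the forkhead match at -235 to -229 and TCAAG at -45 to -41 from the start site. The SFTPB window printed held TCAAG at -114 to -110 and a forkhead match at -83 to -77, and its other window held neither. In HOPX a forkhead match lay at -9 to -3 of the printed start, with none at the other. The LBH window held neither string. Both NKX2-1 windows held 1 forkhead match and no TCAAG. A match describes the letters and is no evidence of binding.

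LBH had the most negative mean log ratio of all 12483 genes and the second largest in size. Its log ratio was -1.64 on array 1, -1.32 on array 2, -1.41 on array 3 and -1.15 on array 4, with a mean of -1.38 ± 0.20 (SD, n = 4). All 4 arrays were far below 0, and LBH ranked 2nd, 9th, 1st and 4th from the lowest gene on arrays 1 to 4. Measured from each array's median, it lay between -9.44 and -7.51 standard deviations of that array's genes. COL4A6 (-1.31) and PLK2 (-1.27) came next in the ranking of means. LBH was read by a single clone, RZPDp202C104D, so no other clone of the gene is there to compare. With the numerator and the turning not given, the sign does not say which culture had more LBH RNA. In RNA of whole cultures, a difference in the share of cells carrying a transcript and one in its amount per cell cannot be told apart either.

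FOXA1 was the member with the most positive mean, 0.33 ± 0.12 (SD, n = 4) over its 2 clones, and stood 160th of 12483 genes by size. The averaged log ratios were 0.47, 0.28, 0.38 and 0.20 on arrays 1 to 4. The clones differed. Clone IMAGp998N225802, drawn as clone a, read 0.83, 0.36, 0.82 and 0.35, all positive, with a mean of 0.59 ± 0.27. Clone IMAGp998E132455, drawn as clone b, read 0.11, 0.20, -0.06 and 0.04, with a mean of 0.07 ± 0.11 that lay within its spread of 0. The first clone exceeded the second by 0.72, 0.15, 0.88 and 0.31 on arrays 1 to 4. Among the 3108 genes with 2 probes this gap of 0.52 between clone means lay at the 99.0th percentile, where the median gap was 0.071. The FOXA1 value thus rests on 1 clone.

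FOXA2, the partner of FOXA1 in the lung, lay near 0. It read -0.06, -0.10, -0.27 and 0.11 on arrays 1 to 4 (mean -0.08 ± 0.16, SD, n = 4), negative on 3 arrays and positive on 1. NKX2-1 read -0.02, 0.04, 0.09 and -0.23 (mean -0.03 ± 0.14), with 2 arrays on each side of 0. The means of FOXA2 and NKX2-1 were smaller than the spread between arrays. These 2 probes also had values that other probes of the same array shared to the last digit. On array 1 the FOXA2 value occurred in 47 other probes and the NKX2-1 value in 25, and each had such repeats on all 4 arrays. LBH, HOPX and SFTPB had none on any array. The part of this coarse grid in the values was not tested.

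HOPX was negative on all arrays, with -0.43, -0.26, -0.29 and -0.25 on arrays 1 to 4 and a mean of -0.31 ± 0.08 (SD, n = 4). It ranked between 164th and 531st from the lowest gene on the single arrays, and 77th from the lowest by its mean. Array 1 was the lowest, and the other 3 lay within 0.05 of each other. The surfactant genes lay near 0. Intensities were not analysed, so here, as for FOXA2 and NKX2-1, a gene alike in both channels and one without signal cannot be told apart. SFTPB, whose product is needed to spread the surfactant film, read 0.13, -0.11, 0.10 and -0.05 (mean 0.02 ± 0.11). SFTPC, the surfactant protein most specific to type II cells, read 0.12, 0.16, -0.06 and 0.07 (mean 0.07 ± 0.10). SFTPB was positive on arrays 1 and 3 and negative on arrays 2 and 4, a pattern that 28.2% of all genes showed in one direction or the other.

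**Figure D1:**
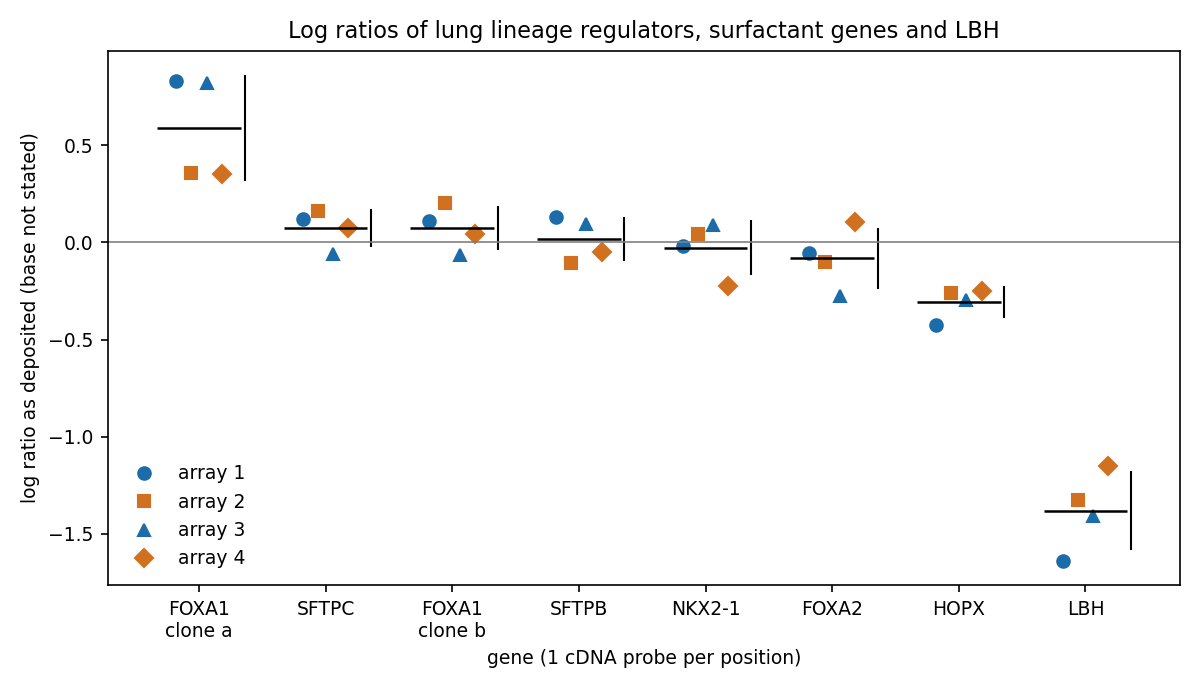
Deposited log ratio (y axis, base not stated) of each cDNA probe (x axis) on arrays 1 to 4, with blue for arrays 1 and 3 and orange for arrays 2 and 4, which carry the other dye orientation. Horizontal bars are means and vertical bars the SD over 4 arrays. LBH lies between -1.64 and -1.15, HOPX between -0.43 and -0.25, and FOXA1 clone a is positive throughout while clone b spans 0.

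By their gene-level means the members ran from FOXA1 (0.33) through SFTPC (0.07), SFTPB (0.02), NKX2-1 (-0.03), FOXA2 (-0.08) and HOPX (-0.31) to LBH (-1.38). The arrays of FOXA1 did not overlap those of SFTPC, its lowest value being 0.20 and the highest of SFTPC 0.16. SFTPC, SFTPB, NKX2-1 and FOXA2 overlapped their neighbours in this order. FOXA2 and HOPX overlapped too, through array 3, where FOXA2 read -0.27. HOPX and LBH were apart, with a lowest HOPX value of -0.43 and a highest LBH value of -1.15. In the shared component 3 of the 7 members passed an adjusted p of 0.05 in limma, 1 positive and 2 negative, where 3.04% of all genes did (1.63% positive, 1.41% negative). Since the members were chosen for this, nothing is read from the count. The call of HOPX was lost without array 2, and those of all 3 without moderation of the variances. The same 3 were the members with 1 sign on all 4 arrays, which 15.8% of all genes had.

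**Figure D2:**
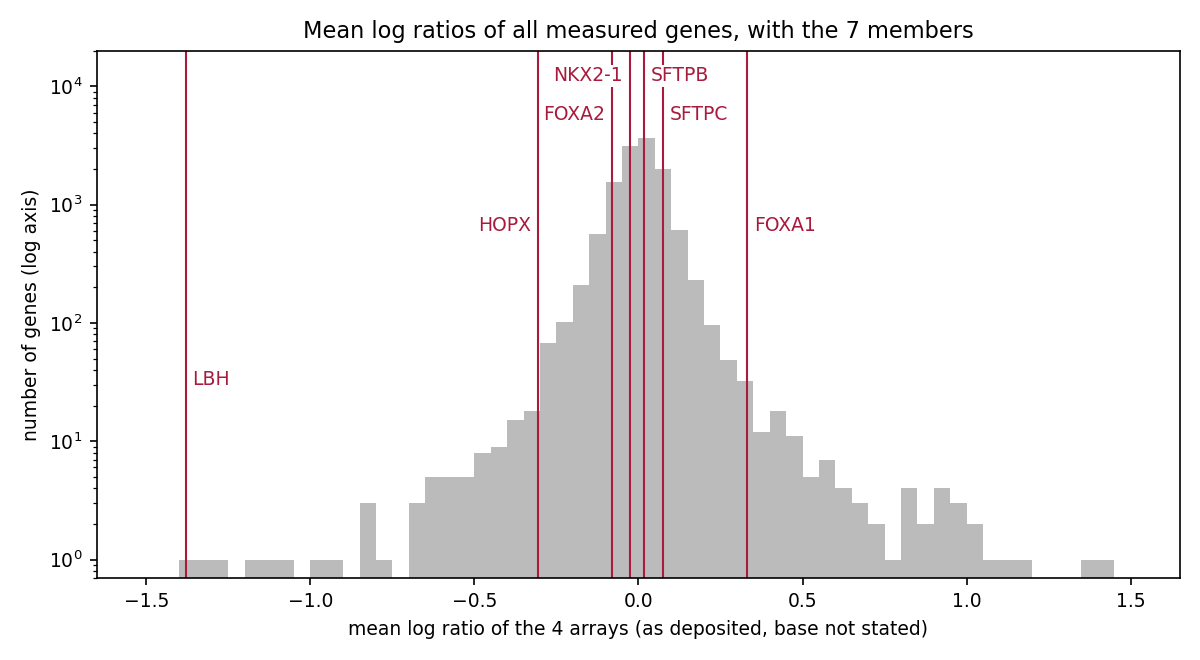
Histogram of the mean log ratio over 4 arrays (x axis, base not stated) of the 12483 genes, with the number of genes on a log axis (y axis) and red lines at the 7 members. NKX2-1, SFTPB, SFTPC and FOXA2 lie in the bulk around 0, HOPX (-0.31) and FOXA1 (0.33) on its flanks, and LBH (-1.38) at the lower end.

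The alternating component asks how far each member's value followed the dye orientation. It was not itself used to choose the genes and was therefore tested. However, both components of a gene have the same SE in this fit. LBH, FOXA1 and HOPX were chosen on a mean that had passed a test, so their tests here are not independent of that choice. None of the 7 members passed in limma with Benjamini-Hochberg adjustment over all genes, where 3.29% of genes did, and 2 of the 7 were under 0.05 before adjustment, as were 25.6% of all genes. LBH had the smallest adjusted p (-0.14 ± 0.05, SE, n = 4; limma adjusted p = 0.151). Its mean was -1.52 on arrays 1 and 3 and -1.24 on arrays 2 and 4, negative in both orientations. Without array 3 the LBH component was -0.20 and passed (limma adjusted p = 0.0107). In that fit array 1 stands alone for its orientation, the residual spread comes from arrays 2 and 4, and array 1 is assumed to vary like them. Without array 1, 2 or 4 it was -0.08, -0.19 and -0.10 and did not pass (adjusted p = 0.281, 0.271 and 0.531). The adjusted p of the others was 0.184 for SFTPB (0.10 ± 0.04, SE), 0.213 for FOXA1 (0.09 ± 0.04), 0.365 for FOXA2 (-0.08 ± 0.05), 0.468 for HOPX (-0.05 ± 0.04), 0.489 for NKX2-1 (0.06 ± 0.05) and 0.592 for SFTPC (-0.04 ± 0.05). A p that misses the threshold does not show that these values are alike in both orientations. The count over all genes, 411, fell to 39 when array 2 was left out and to 69 for array 4, and reached 1580 when array 3 was dropped and 2292 for array 1.

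The planned test was at gene level. A look at the 8 member probes one by one was added after the data were seen, and 1 of them passed, FOXA1 clone a. Its mean was 0.82 on arrays 1 and 3 and 0.35 on arrays 2 and 4. The component of 0.24 ± 0.05 (SE, n = 4) passed in limma (adjusted p = 0.0354 over all probes, of which 4.28% passed). Clone b went the other way and did not pass (-0.05 ± 0.06, SE; adjusted p = 0.603), with a mean of 0.02 on arrays 1 and 3 and 0.12 on arrays 2 and 4. The call of clone a was lost when array 2 (limma adjusted p = 0.193) or array 4 (adjusted p = 0.199) was left out, while its value stayed between 0.23 and 0.24, and it was kept without array 1 (adjusted p = 0.0412) or array 3 (adjusted p = 0.0478). It was also lost with quantile normalization (0.18, adjusted p = 0.0665).

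**Figure D3:**
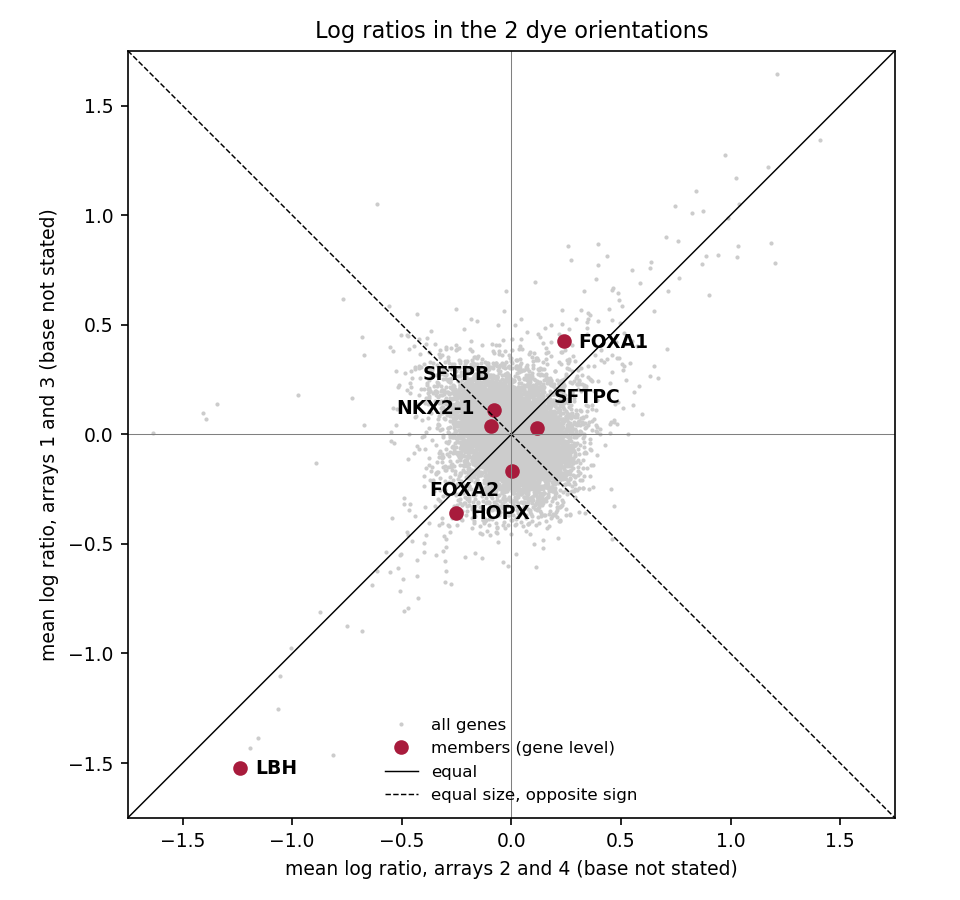
Mean log ratio on arrays 2 and 4 (x axis) against that on arrays 1 and 3 (y axis) for all genes (grey) and the members (red), base not stated. The solid line marks equal values and the dashed line equal size with opposite sign. LBH (-1.24 and -1.52), HOPX (-0.25 and -0.36) and FOXA1 (0.24 and 0.42) lie near the solid line.

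The wider programme of the lung was read from 13 gene lists with the members left out, among them other lung transcription factors, markers of alveolar and airway cells, relatives of FOXA1 and GATA6, and markers of cells other than epithelium. In all, 188 of their genes were measured, and 6 passed in the shared component in limma (5 positive, 1 negative; 3.19%), close to the 3.04% of all genes. The count was 16 without array 1 and 23 without array 3, where the count over all genes also grew, from 379 to 798 and 1471. It was 4 without array 2 and 5 without array 4, with 179 and 203 over all genes. The median of the 188 genes was 0.012, against 0.0069 for all genes. Before adjustment 14.6% of all genes had a p under 0.05, which is the rate to read the unadjusted counts of the lists against.

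Among other transcription factors of the lung 3 of 33 passed, all positive, and 30 did not, with a list median of 0.028. That is 9.09% beside the 3.04% of all genes, and 12 of the 33 had an unadjusted p under 0.05, the largest such share of the 13 lists, where all genes had 14.6%. No test of the list was made. The 12 held both signs. IRX2 (-0.15 ± 0.05, SD, n = 4; limma adjusted p = 0.115), GLI2 (-0.11 ± 0.06; adjusted p = 0.240) and GRHL1 (-0.11 ± 0.18; adjusted p = 0.242) were the negative ones. ETV4, an ETS factor that acts downstream of FGF signalling in the lung bud, read 0.41, 0.45, 0.25 and 0.63 on arrays 1 to 4 (mean 0.43 ± 0.16, SD, n = 4; limma adjusted p = 0.00302). ELF3, an ETS factor of epithelia, read 0.23, 0.38, 0.26 and 0.41 (0.32 ± 0.09; limma adjusted p = 0.00432). Like FOXA1 it had 1 clone that carried the value (0.54) and another near 0 (0.10). WWTR1, which encodes the Hippo pathway coactivator TAZ, read 0.34, 0.53, 0.12 and 0.37 (0.34 ± 0.17; limma adjusted p = 0.0133). Its 2 clones had like means of 0.35 and 0.34 but differed on single arrays. The first read 0.30, 0.56, 0.03 and 0.49 on arrays 1 to 4, and the second 0.38, 0.51, 0.22 and 0.24. The WWTR1 call was lost without array 2 (0.30, adjusted p = 0.0719) and without the alternating component in the fit (0.34, adjusted p = 0.0753). Of the genes of this list that did not pass, TEAD1 had the smallest adjusted p (0.18 ± 0.03; limma adjusted p = 0.0598). It read 0.20, 0.15, 0.16 and 0.20 on arrays 1 to 4. ETV5, the close relative of ETV4, was at 0.06 (adjusted p = 0.567), and YAP1, the paralog of WWTR1, at 0.006 (adjusted p = 0.973). SOX9, a factor of the distal lung bud, was at 0.06 ± 0.24 (adjusted p = 0.806).

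Markers of alveolar type II cells did not pass in limma, 0 of 17, with 3 of 17 at an unadjusted p under 0.05 and a median of 0.011. LPCAT1, an enzyme of surfactant lipid synthesis, had the largest statistic (-0.17 ± 0.16, SD, n = 4; adjusted p = 0.0954). SFTPA1 (0.01 ± 0.07), NAPSA (0.02 ± 0.06) and ABCA3 (0.08 ± 0.12), which serve surfactant and its storage in lamellar bodies, had means within or below their spread. SFTPD (0.009 ± 0.21) and LAMP3 (0.01 ± 0.27), of the same group, had means near 0 but not values near 0: both were negative on arrays 1 and 3 and positive on arrays 2 and 4, LAMP3 with -0.12, 0.10, -0.27 and 0.35 on arrays 1 to 4 and SFTPD with -0.11, 0.20, -0.23 and 0.17. Their alternating components did not pass (adjusted p = 0.0698 and 0.0580). CTSH (-0.11 ± 0.10), BMP2 (-0.08 ± 0.19), CD74 (-0.07 ± 0.13) and SCD (-0.05 ± 0.05) were the other negative means of the list. Of 18 markers of alveolar type I cells, the lineage of HOPX, 1 passed with a positive log ratio: COL4A4, a basement membrane collagen chain (0.40 ± 0.21; limma adjusted p = 0.00314). It too rested on 1 clone (0.72, the other 0.08), and its call was lost without the alternating component in the fit (adjusted p = 0.0731). In this list 4 of 18 had an unadjusted p under 0.05. The remaining 17 did not pass, among them AGER (0.13 ± 0.18), PDPN (0.01 ± 0.11), AQP5 (-0.04 ± 0.22) and CAV1 (-0.08 ± 0.08). None of the 18 passed with the negative sign of HOPX.

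In the shared component no secretory marker of the airway lists passed in limma (0 of 13, 2 at an unadjusted p under 0.05) and no ciliated marker (0 of 13, 0 at an unadjusted p under 0.05). ALDH1A1 had the largest statistic of the former (-0.14 ± 0.07, SD, n = 4; adjusted p = 0.130) and RFX2 of the latter (0.05 ± 0.16; adjusted p = 0.633). Of 12 basal markers LAMB3, a laminin chain, passed (0.56 ± 0.35; limma adjusted p = 0.000437), with 0.86, 0.34, 0.85 and 0.17 on arrays 1 to 4, and 2 of the 12 had an unadjusted p under 0.05. The LAMB3 call was lost without the alternating component in the fit (adjusted p = 0.0903). Genes of non-lung endoderm, which FOXA factors also serve in liver and gut, had 0 of 16 past the threshold of the shared component in limma. There 2 had an unadjusted p under 0.05, and the list median of 0.054 was the highest of the 13 lists. APOH had the largest statistic there (0.13 ± 0.13; adjusted p = 0.241). In the alternating component CLCA2 of the secretory markers (0.22, limma adjusted p = 0.0456) and CDH17 of the endoderm genes (0.24, adjusted p = 0.0321) passed. Among the basal markers NGFR (-0.33, adjusted p = 0.0179) and LAMB3 (0.30, adjusted p = 0.0246) passed there. No ciliated marker did, and the share of all genes was 3.29%. Each of these calls was lost without array 2 and without array 4.

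Relatives of the members did not pass in the shared component. Of 24 measured forkhead genes other than FOXA1 and FOXA2, 0 passed in limma and 2 had an unadjusted p under 0.05, with values between -0.17 and 0.14 and FOXN2 at the largest statistic (0.14 ± 0.11, SD, n = 4; adjusted p = 0.218). Of 8 genes of the GATA family and its partners 0 passed and 1 was under 0.05 unadjusted, GATA2 (-0.12 ± 0.12; adjusted p = 0.300). Heart and limb transcription factors, listed for the tissues that gave LBH its name, had 0 of 18 past the threshold and 2 under 0.05 unadjusted. LMX1B was the first of them (-0.21 ± 0.22; adjusted p = 0.158). HMGA2, a let-7 target that NKX2-1 is known to hold down in lung tumours, was at 0.09 ± 0.14 (adjusted p = 0.542).

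Markers of other cell types were measured beside these results. In the alternating component 2 of the 10 endothelial markers passed in limma, where 3.29% of all genes did. They were ESAM (-0.31, adjusted p = 0.0236) and TEK (-0.20, adjusted p = 0.0439), and both calls were lost without array 2 and without array 4. No fibroblast or blood cell marker passed there. In the shared component 0 of 11 fibroblast and 0 of 10 endothelial markers passed in limma (1 in each list under 0.05 unadjusted, COL1A2 and TEK). Of 8 blood cell markers NKG7 passed in the shared component (-0.26 ± 0.11, SD, n = 4; limma adjusted p = 0.0141). That call was lost when array 2 (-0.28, limma adjusted p = 0.0702) or array 4 (-0.25, adjusted p = 0.108) was left out and without the alternating component in the fit (adjusted p = 0.102). The medians of these lists were 0.012, -0.013 and 0.0018, and those of the single arrays lay between -0.08 and 0.10. Their part in the values of the members was not tested.

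**Figure D4:**
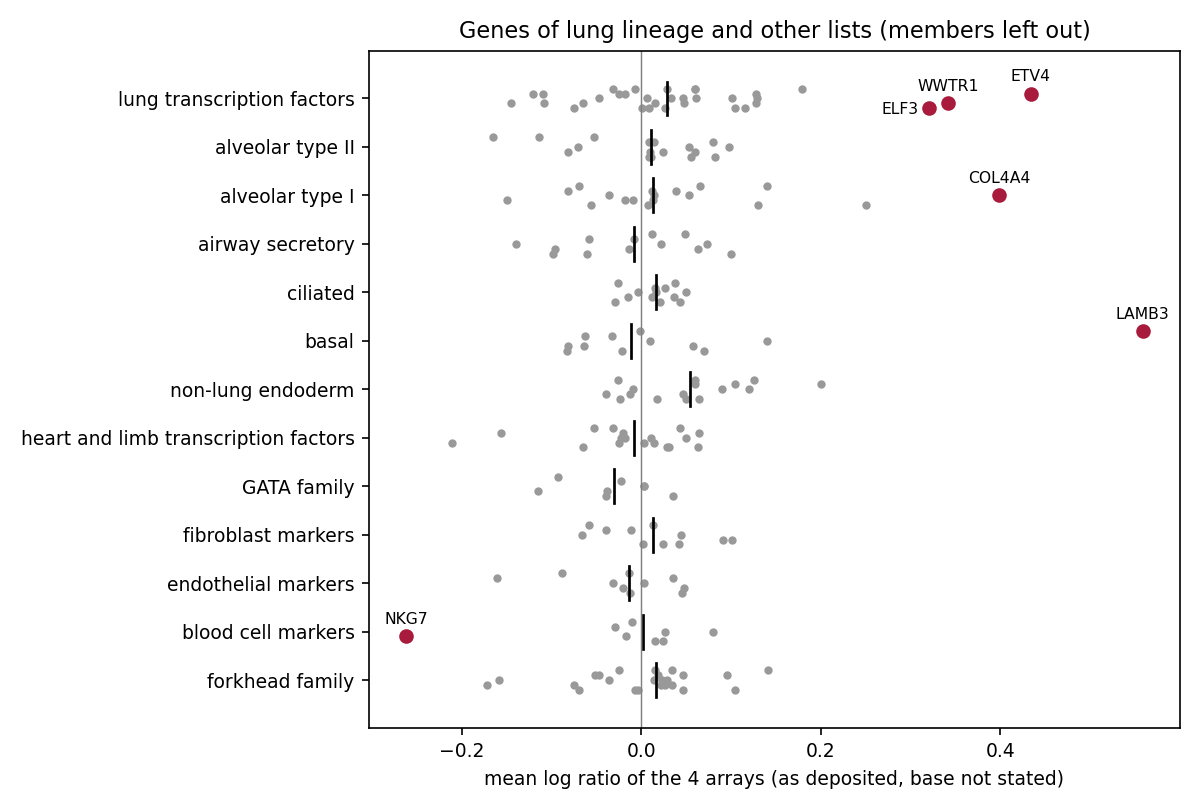
Mean log ratio over 4 arrays (x axis, base not stated) of the genes of 13 lists (y axis), members left out. Red points passed in the shared component in limma (ETV4, ELF3, WWTR1, COL4A4, LAMB3 and NKG7), and grey points did not. Black bars are list medians, which lie between -0.030 and 0.054.

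Genes with log ratios most like those of a member were sought as the 4 probes of other genes with the smallest Euclidean distance. The distance was taken over the 4 log ratios, among probes with 1 symbol. Nearest to LBH was COTL1, an actin-binding protein, at a distance of 0.15, with -1.51, -1.28, -1.39 and -1.10 on arrays 1 to 4. COL4A6 (0.31), PLK2 (0.32) and MFGE8 (0.35) followed. The likeness of MFGE8 is that of 1 clone, with a mean of -1.27 where the average of its 2 clones was -0.61, and for COTL1 the figures were -1.32 and -1.16. Nearest to FOXA1 clone a were ETNK1 (0.12), SLC23A2 (0.15), LAMB3 (0.19) and MAGEA2B (0.20). Like clone a, each was higher on arrays 1 and 3 than on arrays 2 and 4, which follows from the search. The SLC23A2 clone had a mean of 0.57, against 0.40 for the average of its 2 clones. MAGEA2B has near-identical relatives whose RNA the clone may also bind. For HOPX the nearest were RGS3 (0.09), UTP6 (0.10), EFR3B (0.10) and PRSS23 (0.11). Of these, RGS3 (-0.29 for the clone, -0.21 for the gene) and PRSS23 (-0.33 and -0.54) also had 2 clones that differed. Distances describe 4 arrays only, and they take in the level of the log ratios as well as their pattern over arrays. COL4A6 and PLK2 were also next to LBH in the ranking of means.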

How the data were processed

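The series compared A549 cultures overexpressing let-7a-3 with parental cultures on 4 two-colour arrays. According to the series text, scanner output was processed by the authors in ArrayMagic with variance-stabilizing normalization and tested in limma. Deposited values are log ratios with base and numerator not stated. Variance stabilization compresses ratios of dim spots. The sources used here give no versions or spot filters.

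Values were used as deposited. Probes were named through the platform annotation (20963 of 20976 probes with 1 symbol matched a gene ID in the GRCh38.p14 table, 0 symbols changed), and probes of a gene were averaged. The limma fit (version 3.58.1 in R 4.3.3) gave each gene a shared and an alternating coefficient, on 2 residual degrees of freedom plus 5.89 from moderation. Tests were two-sided, adjusted by Benjamini-Hochberg over all 12483 genes, at 0.05. The members, lists and tests were chosen with earlier results of these data known. Named genes are the members with all their probes, up to 4 genes past the threshold per list and component or else the one with the largest statistic, the 4 nearest probes of LBH, FOXA1 and HOPX, and HMGA2. SFTPA1, SFTPD, ABCA3, LAMP3, NAPSA, AGER, PDPN, AQP5 and CAV1 are the measured markers written down for the alveolar cell types. CTSH, BMP2, CD74, SCD, ETV5, YAP1, SOX9, TEAD1, IRX2, GLI2 and GRHL1 were named after their values were seen. On data simulated for the shared component over 12483 genes, 88.1% of 67 genes changed by 0.25 were recovered and all changed by 0.5 or 1, with 12 false among 204 calls. For the alternating component 95.5% of 67 changed by 0.25 were recovered, with 22 false among 219. In both components the share of false calls was above the 0.05 aimed at, and more so in the alternating one. The simulated noise was normal, independent between genes and drawn with the moderated variances of the fit itself. These rates therefore describe that setting and need not hold for the deposited values. Alternatives were another centring, scaling, normalization, moderation, weighting, threshold, choice of probe, a fit of 1 component alone, and each array left out in turn. Figures used matplotlib 3.10.9.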

Additional observations from a re-analysis of the deposited data

Results flagged for a closer look

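FOXA1 clone IMAGp998N225802 differed between the dye orientations, with an alternating component of 0.24 ± 0.05 (SE, n = 4; limma adjusted p = 0.0354), positive on 4 of 4 arrays and larger on arrays 1 and 3. Of the 188 measured genes of the lists, 7 passed in the alternating component in limma (4 positive, 3 negative), where 411 of all 12483 genes (3.29%) did. Before adjustment 52 of the 188 had a p under 0.05, as did 25.6% of all genes. No test of the lists was made, and nothing is read from these counts. LAMB3 had a component of 0.30 (adjusted p = 0.0246) and, like the FOXA1 clone, was positive on all 4 arrays. CLCA2 (0.22, adjusted p = 0.0456), CDH17 (0.24, adjusted p = 0.0321) and FOXL2 (0.26, adjusted p = 0.0269) were positive on arrays 1 and 3 and negative on arrays 2 and 4. NGFR (-0.33, adjusted p = 0.0179), ESAM (-0.31, adjusted p = 0.0236) and TEK (-0.20, adjusted p = 0.0439) ran the opposite way. Each of these 7 gene calls was lost without array 2 and without array 4, with values near those above: NGFR was at -0.34 and -0.32 (adjusted p = 0.0583 and 0.0601), ESAM at -0.34 and -0.28 (adjusted p = 0.0583 and 0.107), CDH17 at 0.26 and 0.23 (adjusted p = 0.124 and 0.153) and CLCA2 at 0.18 and 0.25 (adjusted p = 0.248 and 0.128). All 7 were kept without array 1 and without array 3, where the residual spread comes from arrays 2 and 4 alone. All 7 calls were also lost without the shared component in the limma fit (adjusted p from 0.0661 for NGFR to 0.494 for LAMB3). The same held without moderation (adjusted p from 0.257 for NGFR to 0.308 for CLCA2) and at a threshold of 0.01. Only the TEK call was lost when arrays were centred on their medians (adjusted p = 0.050009) or scaled to a common median absolute deviation (adjusted p = 0.0508).

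FOXN2, a forkhead gene, had 1 array far from the rest. It read 0.31 on array 3 against 0.08 to 0.09 on the others, a gap of 0.954 of its whole range, above Dixon's critical value for a group of 4. Of 36 items checked this way 1 was past that value, and chance alone passes about 1 in 20.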

How the results depend on the processing

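The shared value of LBH lay between -1.64 (quantile normalization) and -1.32 over 15 alternatives, that of HOPX between -0.34 and -0.27, and that of FOXA1 between 0.31 and 0.35 except for 0.59 with the probe of the largest statistic. Of their calls, all 3 were lost without moderation and that of HOPX without array 2. LBH, FOXA1 and HOPX were chosen on a mean that had passed a test, so a call that was kept adds no support. NKX2-1 changed sign when 1 array was left out (-0.09 to 0.04), within its spread. Counts of genes moved more. The 379 genes of the shared component became 156 without the other component in the fit, 162 at a threshold of 0.01, 613 at 0.1, 690 with the probe of the largest statistic, 0 without moderation in limma (1337 at an unadjusted p under 0.05), and 179 to 1471 with 1 array left out. The 6 list genes became 2 without the other component (ETV4 and ELF3), 10 with the probe of the largest statistic, 0 without moderation (20 unadjusted), and 4 to 23. The 411 genes of the alternating component became 10 without the shared one in the fit, 7 at 0.01, 1400 at 0.1, 1949 with the probe of the largest statistic, 1 without moderation, and 39 to 2292. The cause was not tested. Members past the threshold there, 0 in limma (2 unadjusted), became 1 with the probe of the largest statistic (FOXA1) and 0 to 1 with 1 array left out (LBH, without array 3). For FOXA1 clone a, examined under the alternatives after the data were seen, the call was lost without the shared component in the fit (0.24, adjusted p = 0.569), without moderation (0.24, adjusted p = 0.249), with quantile normalization (0.18, adjusted p = 0.0665) and at 0.01, and its value was 0.23 to 0.24 with 1 array left out. No paired analysis was possible because the arrays form 1 group, beyond the pairing of the 2 cultures of an array that its ratio already makes. The number of arrays limits the precision, and signal over background is unknown.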

Other observations

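The deposited columns held many values that occurred in more than 1 probe to the last digit. On array 1 this was true of 71.5% of the 26629 probes, and on arrays 2, 3 and 4 of 51.9%, 55.4% and 52.8%. Probes with no such repeat on any array were 18.2% of all, and 8.09% of them passed in the shared component in limma, against 0.135% of the 8153 probes with repeats on all 4 arrays and 2.07% of all probes. The median size of the shared value was 0.059 in the former and 0.049 in the latter. The shares are a description, and what sets them was not tested. In the alternating component the shares were 4.93% and 2.47%. LBH, HOPX and SFTPB were among the probes without repeats. FOXA1 clone a had 1 other probe with its value on array 2, clone b had 3 on array 1, and SFTPC had 2 on array 1 and 2 on array 3. FOXA2 (47, 11, 6 and 5 other probes on arrays 1 to 4) and NKX2-1 (25, 6, 9 and 1) belonged to the group with repeats on every array.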
